A study of Mus musculus with 8 samples.

Results

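Acss1, Acss2 and Acss3, the 3 short-chain acyl-CoA synthetase genes of the mouse, were taken by symbol from a liver RNA-seq table of 22564 rows, and all 3 were found, each on 1 row. The table compared 4 livers of db/db mice with 4 livers of lean mice. All 8 samples were male. The db/db mice carry a mutated leptin receptor gene (Lepr) in every cell and become obese and diabetic, and their strain was labelled only as db/db. The lean mice were labelled C57BL/6, so genetic background and genotype cannot be told apart where they differ. Ages were not given in the labels, and all mice had food and water freely and a 12-hour light cycle. Nothing in the labels ties a sample to a named animal, so the p-values here speak of the spread among libraries, part of which may be technical.

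Short-chain acyl-CoA synthetases join acetate, propionate and other short acids to coenzyme A with energy from ATP, so that the acid can enter metabolism. ACSS2 works in the cytosol and nucleus and makes acetyl-CoA for lipid synthesis and histone acetylation, and its gene is a known target of the sterol-responsive SREBP transcription factors. ACSS1 and ACSS3 are mitochondrial: ACSS1 activates acetate for oxidation and is best known from heart, muscle and brown fat, while ACSS3 prefers propionate and is known from liver. In the authors' annotation all 3 members belong to propanoate metabolism and carry acetate-CoA ligase activity. Acss1 and Acss3 are placed there in the mitochondrion and Acss2 in the cytoplasm.

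Estimated fragments in genes numbered 13158024 to 16171866 per db/db library and 12174578 to 14978883 per lean library. Sample db/db 1 stood apart from the other db/db samples on the second principal component, at 29.6 against -15.0 to -4.59, a component that held 10.7% of the variance. Of 10943 genes tested, 1694 were higher and 1198 lower in db/db (limma adjusted p under 0.05), which is 15.5% and 10.9% of them. Scaling every library to the same FPKM sum made 2615 higher and 803 lower (76.5% of calls higher, against 58.6% before) and shifted the median log2 fold change of all genes to 0.18. FPKM sums were 555661 to 602391 in db/db livers and 641355 to 676884 in lean livers. Lepr averaged 0.617 ± 0.0879 FPKM in db/db livers and 0.719 ± 0.205 FPKM in lean livers (SD, n = 4 each, limma adjusted p = 0.652). It was called lower in 2 of 18 alternative fits, the deposited count signal among them (adjusted p = 0.0181). The db mutation alters splicing, so this level does not check the genotype.

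The promoters of Acss2 and Acss1 are shown because Acss2 was among the more abundant liver transcripts and Acss1 close to undetected. Both windows hold 250 bases before and 50 after the RefSeq start of the gene (build GRCm38.p6), written on the strand of the gene. The Acss2 window is chr2:155517793-155518092 on the plus strand and the Acss1 window is chr2:150668191-150668490 on the minus strand. Capitals mark GC boxes (GGGCGG) and CCAAT boxes, on either strand.
Acss2: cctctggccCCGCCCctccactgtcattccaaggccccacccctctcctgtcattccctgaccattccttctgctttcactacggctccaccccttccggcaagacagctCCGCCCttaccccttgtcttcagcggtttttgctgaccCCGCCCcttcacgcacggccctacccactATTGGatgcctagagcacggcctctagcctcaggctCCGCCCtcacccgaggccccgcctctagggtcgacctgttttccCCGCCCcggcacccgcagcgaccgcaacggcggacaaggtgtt
Acss1: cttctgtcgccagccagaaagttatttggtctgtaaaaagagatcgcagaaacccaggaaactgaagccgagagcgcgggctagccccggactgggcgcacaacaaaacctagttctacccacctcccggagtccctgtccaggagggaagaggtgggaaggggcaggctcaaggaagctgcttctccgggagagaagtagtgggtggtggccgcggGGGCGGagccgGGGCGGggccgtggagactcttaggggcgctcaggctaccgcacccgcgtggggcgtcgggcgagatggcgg
The Acss2 window held 5 GC boxes and 1 CCAAT box, and the Acss1 window held 2 GC boxes and no CCAAT box. Among 32851 promoter windows of the same length in the RefSeq table, 35.7% held a GC box and 37.4% a CCAAT box. Also searched on both strands were the SREBP site core TCACNCCAC (in 1.24% of windows), the TATA box TATAAA (13.6%) and the E-box CACGTG (7.15%). None of these had a match in either window, which says only that these letters are not in these bases. G and C made up 65.0% of the Acss2 window and 64.3% of the Acss1 window, against a median of 52.7% over all windows. The Acss2 window also lies within Ggt7, a gamma-glutamyltransferase family gene that starts on the opposite strand. Ggt7 had at most 0.120 FPKM in db/db livers and at most 0.139 FPKM in lean. The Acss1 window lies within E130215H24Rik, a noncoding gene on the opposite strand (150667494 to 150668935). It also lies wholly inside Acss1 as annotated in GENCODE vM21, which places the gene start at 150668500, upstream of the window. For Acss2 GENCODE places the gene start at 155517948, inside the window, so from there on the window is part of the annotated gene.

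Acss3, the mitochondrial propionate-activating member, was the one whose groups did not overlap. Its level (FPKM, a fragment count corrected for transcript length and library size) was 19.2, 12.1, 8.65 and 13.4 in db/db samples 1 to 4, against 0.885, 0.200, 0.346 and 0.638 in lean samples 1 to 4. Every db/db sample was thus well above every lean sample, and the lowest db/db sample was number 3. The means were 13.3 ± 4.38 FPKM in db/db livers and 0.517 ± 0.306 FPKM in lean (SD, n = 4 each), a ratio of 25.8. Acss3 rose by limma on log2(FPKM + 1), with a log2 fold change of 3.21 (SE 0.22, adjusted p = 4.73e-06). By an exact permutation test of FPKM (2-sided) p was 0.0286, the smallest that 4 against 4 allows. Of all genes tested, 26.4% passed the limma threshold in either direction and 16.9% had every db/db sample above every lean sample. By the size of its rise Acss3 was number 29 of the 10943 genes. In bulk liver RNA, more cells expressing a gene and more RNA per cell cannot be told apart.

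The lean level of Acss3 rested on few fragments. Estimated fragments were 780, 429, 295 and 482 in db/db samples 1 to 4, against 31, 6, 11 and 18 in lean samples 1 to 4. The exact 95% Poisson interval, which covers counting error only, ran from 262 to 331 fragments for the lowest db/db library. For the lowest lean library, number 2, it ran from 2.20 to 13.1 fragments, and for the highest, number 1, from 21.1 to 44.0. Scaled to library depth (CPM), the fragments came to 22.4 to 48.2 in db/db livers and 0.493 to 2.07 in lean livers. Since a pseudocount of 1 FPKM is larger than the lean level, the log2 fold change of 3.21 understates the ratio. It was 4.53 with a pseudocount of 0.1 and 4.87 by voom on estimated fragments (adjusted p = 8.99e-05). Acss3 was called in every fit that tested it, those that left out 1 sample included (log2 fold change 3.03 to 3.39).

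**Figure D1:**
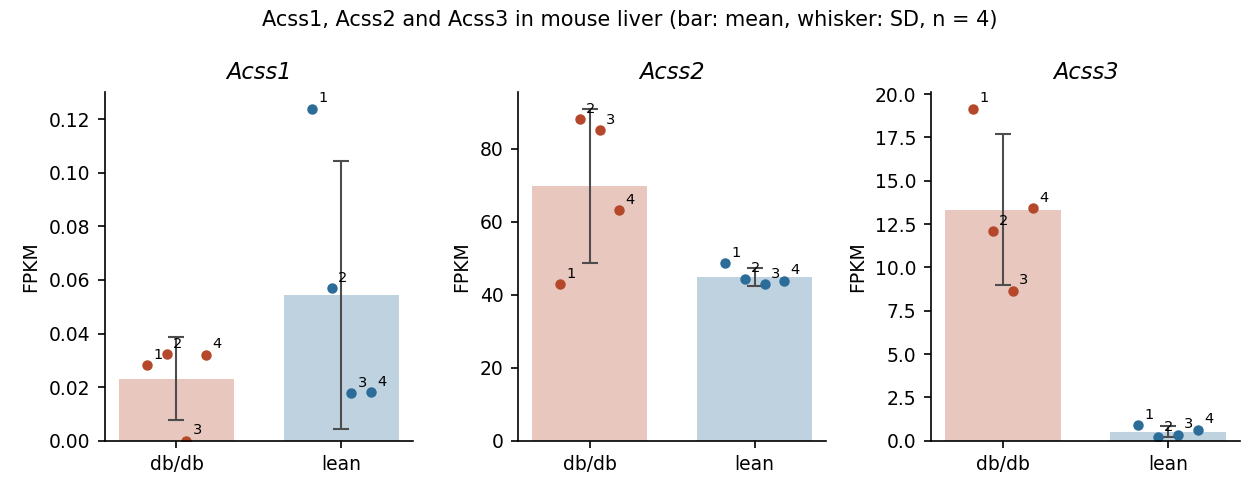
FPKM of Acss1, Acss2 and Acss3 in each liver, with db/db samples left of lean samples. Points are samples with their numbers, bars are means and whiskers SDs (n = 4), and each panel has its own linear axis. Acss3 sits between 8.65 and 19.2 FPKM in db/db livers and below 0.9 FPKM in lean, while db/db 1 lies among the lean samples for Acss2.

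Acss2, the cytosolic and nuclear acetyl-CoA synthetase, was the most abundant member in all 8 livers, and did not pass the threshold. Its level was 42.9, 88.2, 85.2 and 63.3 FPKM in db/db samples 1 to 4, against 48.6, 44.4, 42.9 and 43.9 FPKM in lean samples 1 to 4. Samples 2, 3 and 4 of db/db lay above all lean samples, and db/db 1 lay within the lean range. The means were 69.9 ± 21.2 FPKM in db/db livers and 44.9 ± 2.54 FPKM in lean (SD, n = 4 each), a ratio of 1.56. The log2 fold change was 0.57 (SE 0.20, limma adjusted p = 0.0560), and p was 0.114 by an exact permutation test (2-sided). The spread differed between the groups, with an SD of 30.3% of the mean in db/db livers and 5.64% in lean. Without db/db 1 the log2 fold change was 0.78 and the gene was called (limma adjusted p = 0.00183). Leaving out any other 1 sample gave no call, with a highest adjusted p of 0.143 without db/db 2.

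Sample db/db 1, with the lowest Acss2 level of its group, was the deepest library. Estimated Acss2 fragments were 2319, 4256, 3907 and 3131 in db/db samples 1 to 4, against 2418, 1751, 1843 and 1890 in lean samples 1 to 4. In CPM that was 143.4 in db/db 1 and 218.2 to 304.5 in db/db 2, 3 and 4, against 141.1 to 161.4 in lean livers. Some fits called Acss2, among them the deposited count signal (log2 fold change 0.61, adjusted p = 0.0424), voom (0.64, adjusted p = 0.0352) and library weights (0.69, adjusted p = 0.0123), and db/db 1 had a weight of 0.533, the lowest of all libraries. A higher mean than that of Acss2 was found for 11.1% of the genes tested.

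Acss1, the mitochondrial acetate-activating member, was close to undetected. Its level was 0.0283, 0.0324, 0 and 0.0321 FPKM in db/db samples 1 to 4, against 0.124, 0.0570, 0.0178 and 0.0181 FPKM in lean samples 1 to 4. The groups overlapped, and the highest value was in lean 1. These values stood for 2, 2, 0 and 2 estimated fragments in the db/db livers and 8, 3, 1 and 1 in the lean livers. The count of 0 in db/db 3 allows, as a 1-sided limit, up to 3 fragments, or 0.0512 FPKM, and every other db/db sample was also below its own 3-fragment level. By an exact permutation test (2-sided) p was 0.286. Acss1 did not reach 0.5 FPKM in any sample and so was not in the limma test, and no fold is given. A difference was not detectable at this depth.

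Read per kilobase, the order of the members was Acss2, then Acss3, then Acss1 in every liver, with gaps that differed between the groups. Acss3 made up 30.9%, 12.1%, 9.22% and 17.5% of the summed FPKM of the 3 genes in db/db samples 1 to 4, against 1.78%, 0.447%, 0.7999% and 1.43% in lean samples 1 to 4. No db/db share overlapped with a lean share. Acss2 was 2.24 to 9.85 times as high as Acss3 in db/db livers, against 54.9 to 222.6 times in lean livers. The log2 ratio of Acss3 to Acss2 averaged -2.39 ± 0.928 in db/db livers and -6.66 ± 0.907 in lean (SD, n = 4 each). Its difference of 4.27 had p = 0.0286 by an exact permutation test (2-sided), the smallest possible, so Acss3 and Acss2 changed by different amounts. The summed FPKM was 62.1 to 100.3 in db/db livers and 43.2 to 49.6 in lean livers.

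The order of the db/db samples was not the same for the pair. Acss3 was highest in db/db 1, where Acss2 was lowest, and db/db 4 was next in each case. Acss2 was high in db/db 2 and 3, which had the lowest levels of Acss3. In lean samples number 1 was highest for both genes.

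**Figure D2:**
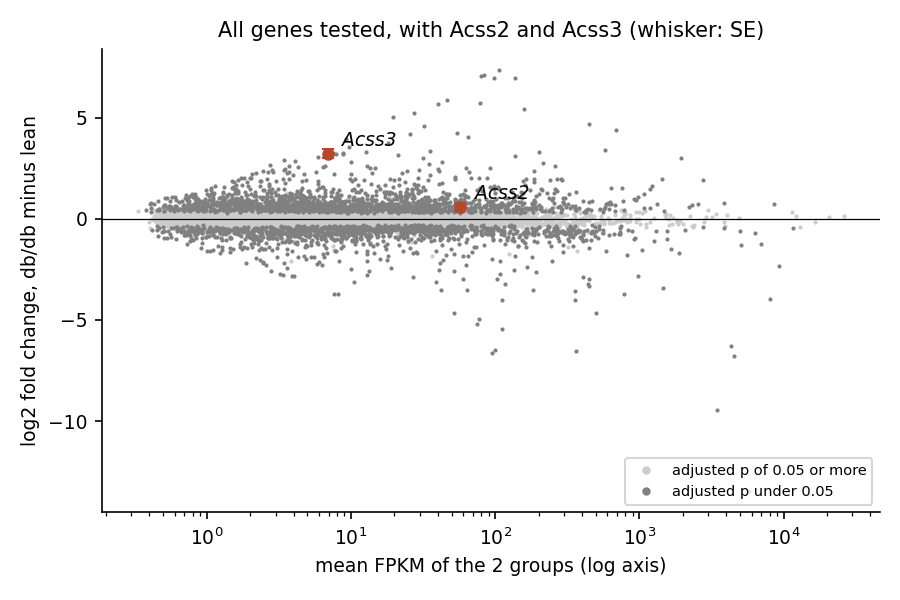
Log2 fold change of db/db minus lean on the log2(FPKM + 1) scale against mean FPKM (log axis) for the 10943 genes tested, genes listed at 0 in some samples included. Acss3 stands at 3.21 and Acss2 at 0.57, with whiskers for the SE. Acss1 was not tested.

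The loci differ in how clearly reads can be assigned. Acss1 (ENSMUSG00000027452, minus strand) spans 150618105 to 150668500 of chromosome 2 in GENCODE vM21 (build GRCm38, the same as mm10), with 14 exons in its coding transcript. It shares 113 exonic bases with E130215H24Rik, a noncoding gene on the plus strand. Acss2 (ENSMUSG00000027605, plus strand) spans 155517948 to 155585724 of chromosome 2, with 4 coding transcripts. It shares exonic bases with 3 genes on the minus strand: 197 with Ggt7, 335 with Acss2os and 395 with Gss, out of 10163 of its own. In the authors' table Acss2, Ggt7 and Gss all carry the same interval, 155490379 to 155594955. The libraries were stranded, but no source used here says whether the counting used strand, so overlapping genes are uncertain. Gss, the glutathione synthetase gene, averaged 35.2 ± 1.16 FPKM in db/db livers and 40.6 ± 3.37 FPKM in lean livers (SD, n = 4 each, limma adjusted p = 0.147). Acss3 (ENSMUSG00000035948, minus strand) spans 106933517 to 107123668 of chromosome 10. There 2436 of its exonic bases overlap Ppfia2 on the plus strand, but the interval in the authors' table starts at 106936164, beyond the end of their Ppfia2 interval at 106933467. Ppfia2, a liprin gene, had at most 0.0726 FPKM in db/db livers and at most 0.0776 FPKM in lean.

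Genes listed around the supply and use of acetyl-CoA, with carriers and deacylases among them, were mostly higher in db/db. Of 24 listed, 22 were tested, 14 rose and 0 fell, which is 63.6% called, against 26.4% of all genes (15.5% higher). This list and the later ones were chosen with earlier results of these data known, so their shares are descriptive and not an independent test. Their median log2 fold change was 0.66, against 0.04 over all genes tested. Acly, which makes the same acetyl-CoA from citrate, rose to 118.8 ± 40.2 FPKM in db/db, against 43.2 ± 5.24 in lean (limma adjusted p = 0.00158). Its 4 db/db values were 68.2, 150.6, 151.7 and 104.8 FPKM, and db/db 1 was again the lowest, above all lean samples. Fasn, the fatty acid synthase, rose to 390.9 ± 219.4 FPKM in db/db, against 92.8 ± 36.6 in lean livers, and Acaca, which makes malonyl-CoA, to 13.4 ± 3.40 in db/db, against 7.63 ± 1.26 in lean (limma adjusted p = 0.00577 and 0.0135). Pdha1, a subunit of pyruvate dehydrogenase, rose 1.77-fold, and Aldh2, which makes acetate from acetaldehyde, rose 1.39-fold (limma adjusted p = 0.000243 and 0.00440). The Aldh2 call was lost with voom (adjusted p = 0.0719) and on the count signal (adjusted p = 0.148).

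Carriers, hydrolases and deacylases around the synthetases differed among themselves. Slc16a7, a monocarboxylate transporter, rose to 44.5 ± 11.7 FPKM in db/db, against 16.3 ± 3.09 in lean (limma adjusted p = 0.000688). Slc16a1, another such transporter, averaged 10.01 ± 2.27 FPKM in db/db livers and 7.67 ± 1.81 FPKM in lean livers (limma adjusted p = 0.229). Crat, the carnitine acetyltransferase, rose 2.86-fold and Acot8, a peroxisomal thioesterase, 1.67-fold (limma adjusted p = 0.00821 and 0.00236). Acot12, which splits cytosolic acetyl-CoA to acetate, averaged 59.2 ± 3.31 FPKM in db/db livers and 49.7 ± 7.02 FPKM in lean livers (limma adjusted p = 0.132). It was called in 3 of 19 alternatives, voom among them (adjusted p = 0.0143). Sirt3, the mitochondrial deacetylase that activates ACSS1, rose to 64.8 ± 8.26 FPKM in db/db, against 43.3 ± 2.98 in lean (limma adjusted p = 0.00440). Sirt1, the deacetylase that activates ACSS2, averaged 3.29 ± 0.404 FPKM in db/db livers and 3.45 ± 0.928 FPKM in lean livers (limma adjusted p = 0.888), a difference whose sign changed with TPM scaling and voom.

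**Figure D3:**
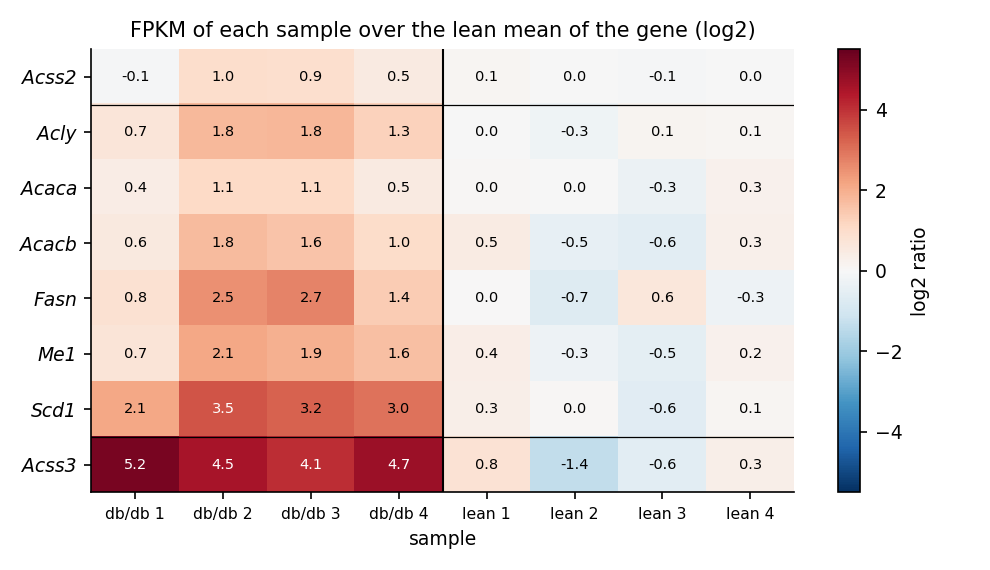
Log2 of the FPKM of each sample over the lean mean of the gene, for Acss2, 6 genes of fatty acid synthesis and Acss3, with db/db samples left of lean samples. In db/db 1 the Acss2 value is near 0 and the 6 drawn genes, picked after their values were seen, have their lowest db/db values, while Acss3 has its highest.

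Across the db/db samples, many genes of the acetyl-CoA list, carriers and deacylases included, had their low point in db/db 1 as Acss2 did. This observation was made after the values were seen. Of the 22 tested, 17 had their lowest db/db value in sample 1, against 29.9% of all genes tested. In 7 of the 22, as in Acss2, db/db 4 was the next lowest, against 10.5% of all genes. Of the SREBP list, 15 of 27 genes were lowest and 6 highest in db/db 1, against 29.9% and 33.3% of all genes. Elovl6, a fatty acid elongase, was highest there, at 73.8 FPKM, with 46.6 to 57.3 FPKM in db/db 2 to 4. Acaca, Acacb, Acly, Fasn, Me1 and Scd1, which were lowest there, are shown by sample beside Acss2. Scd1, the stearoyl-CoA desaturase, had 1834 FPKM in db/db 1 and 3365 to 4648 FPKM in db/db 2 to 4, against 268.5 to 524.0 FPKM in lean. These genes share libraries and depth, and the part of db/db 1 in the pattern was not tested beyond the fits without it, in which the acetyl-CoA list again had 14 higher and 0 lower.

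Genes listed around propionyl-CoA, the product of ACSS3, were likewise higher where they differed. The list is wider than the route that takes up propionyl-CoA. Of 20 genes of propionate and short-chain acyl-CoA breakdown tested, 12 rose and 0 fell, against 15.5% and 10.9% of all genes. Their median log2 fold change was 0.49, against 0.04 over all genes tested. Pcca, a subunit of propionyl-CoA carboxylase, rose to 87.0 ± 14.4 FPKM in db/db, against 50.1 ± 11.7 in lean (limma adjusted p = 0.00821). Pccb, its partner subunit, averaged 77.9 ± 10.9 FPKM in db/db livers and 61.4 ± 3.83 FPKM in lean livers (limma adjusted p = 0.0548). Pccb was called in 3 of 19 alternatives, voom among them (adjusted p = 0.0226). Mut, the methylmalonyl-CoA mutase also written Mmut, rose 1.55-fold (limma adjusted p = 0.0172). Of other genes of the propionyl-CoA route, Mmadhc rose (limma adjusted p = 0.0129). Mcee, Mmaa, Mmab and Mmachc were not called (limma adjusted p = 0.106, 0.236, 0.0840 and 0.228). Within db/db, 8 of the 20 genes (40%) were highest in sample 1, as Acss3 was, and 11 (55%) were lowest there. Over all genes tested, 33.3% were highest and 29.9% lowest in that sample, so the share highest was near that of all genes. Of this list, Mut and Pccb were among those highest, at 63.1 and 92.5 FPKM, and Pcca was among those lowest, at 68.1 FPKM. Suclg2, a subunit of succinyl-CoA synthetase, rose to 185.1 ± 15.6 FPKM in db/db, against 87.2 ± 6.97 in lean (limma adjusted p = 4.2e-05). Hibch, of valine breakdown, rose to 69.0 ± 3.36 FPKM in db/db, against 36.3 ± 4.81 in lean (limma adjusted p = 0.000213). Hadh and Hsd17b10, which encode hydroxyacyl-CoA dehydrogenases, rose 1.92- and 1.82-fold (limma adjusted p = 0.000624 and 0.000216). No rise in this list matched that of Acss3: the largest log2 fold change was 1.08, of Suclg2.

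Genes of the SREBP pathway, of which Acss2 is a known target, went both ways. Of 28 listed, 27 were tested, 6 rose and 5 fell, which is 40.7% called, against 26.4% of all genes. Their median log2 fold change was -0.08, against 0.04 over all genes tested. Srebf1, whose products drive fatty acid genes, averaged 57.4 ± 22.6 FPKM in db/db livers and 44.3 ± 17.2 FPKM in lean livers (limma adjusted p = 0.429). Its highest sample was db/db 1 at 86.3 FPKM, in which Acss2 was lowest. Srebf2, the regulator of sterol genes, averaged 3.24 ± 0.572 FPKM in db/db livers and 3.65 ± 1.37 FPKM in lean livers (limma adjusted p = 0.757). Insig2, which retains SREBP in the endoplasmic reticulum, rose 5.15-fold to 109.8 ± 7.85 FPKM in db/db (limma adjusted p = 6.25e-07). Its relative Insig1 averaged 89.0 ± 6.04 FPKM in db/db livers and 118.5 ± 30.3 FPKM in lean livers (limma adjusted p = 0.104). It was called lower without lean 2 (log2 fold change -0.49, limma adjusted p = 0.0422), and its log2 fold change was -0.22 without lean 3 (adjusted p = 0.189). The targets of lipid synthesis Elovl6, Scd1 and Gpam rose 8.68-, 8.25- and 5.51-fold (limma adjusted p = 3e-05, 4.27e-05 and 3.22e-05). Cyp51, of sterol synthesis, fell to 12.1 ± 1.61 FPKM in db/db, against 41.6 ± 3.59 in lean (limma adjusted p = 4.91e-06).

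Among the other acyl-CoA synthetases, 15 of 21 listed were tested, 5 rose and 1 fell, which is 40.0% called, against 26.4% of all genes. Aacs, the acetoacetyl-CoA synthetase, averaged 22.0 ± 3.61 FPKM in db/db livers and 18.5 ± 2.08 FPKM in lean livers (limma adjusted p = 0.225). Aacs was called in 1 of 19 alternatives (limma adjusted p = 0.0384). Acsf3, a mitochondrial malonyl-CoA synthetase, rose to 14.9 ± 2.43 FPKM in db/db, against 10.1 ± 1.51 in lean (limma adjusted p = 0.0182). Acsf2, of medium-chain acids, rose to 51.5 ± 11.4 FPKM in db/db, against 35.9 ± 3.91 in lean (limma adjusted p = 0.0467), but the call was lost in 10 of 19 alternatives, 6 of which left out 1 sample (adjusted p up to 0.123). Acsm5, Acsl5 and Slc27a4, of medium-, long- and very long-chain acids, rose 1.98-, 2.05- and 2.04-fold (limma adjusted p = 0.000241, 0.000637 and 0.00117). Acsm1, a medium-chain member, fell to 155.8 ± 18.6 FPKM in db/db, against 227.5 ± 14.1 in lean (limma adjusted p = 0.00416). Slc27a2, the most abundant of this list, averaged 855.9 ± 32.0 FPKM in db/db livers and 738.8 ± 161.8 FPKM in lean livers (limma adjusted p = 0.291). The largest rise in this list was 1.02 on the log2 scale, against 3.21 for Acss3.

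**Figure D4:**
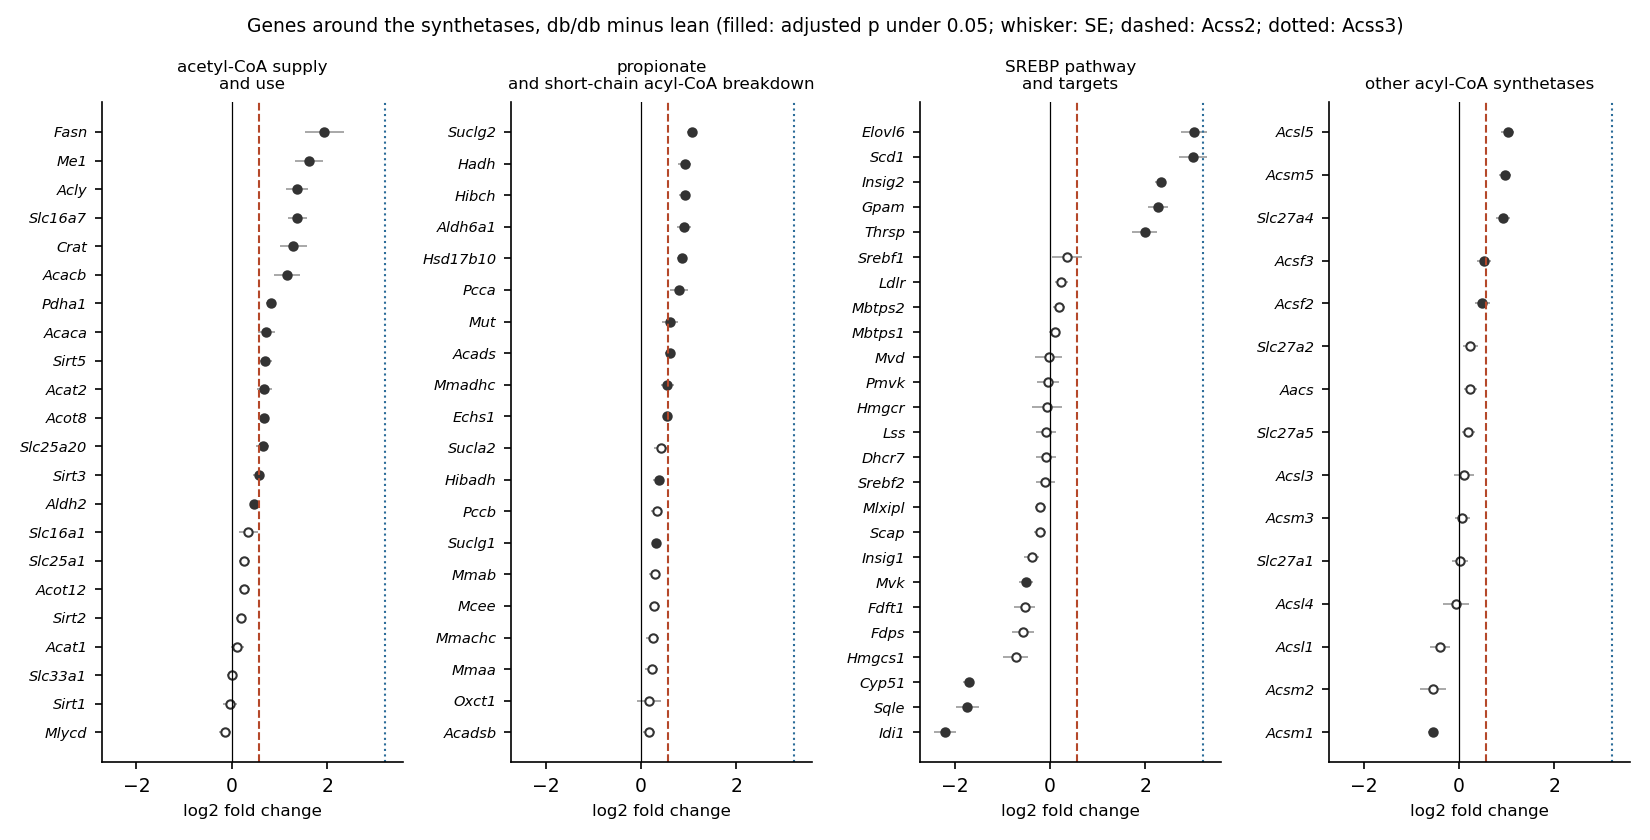
Log2 fold changes (db/db minus lean, whiskers for the SE) of tested genes of 4 lists around the synthetases, with filled points for limma adjusted p under 0.05. The dashed line marks Acss2 at 0.57 and the dotted line Acss3 at 3.21. The first 2 lists have filled points on the right side alone, and the SREBP list has them on both sides.

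The genes whose profile over the 8 samples was most like that of each member were named by the root mean square difference of z-scored log2(FPKM + 1) values, over 9772 genes with a mean of at least 1 FPKM and values above 0 throughout. For Acss3 they were Suox, the sulfite oxidase gene (0.109), Mme, the neprilysin gene (0.127), and Pik3cb, a catalytic subunit of phosphoinositide 3-kinase (0.133). Suox had 103.0, 76.5, 76.6 and 82.9 FPKM in db/db samples 1 to 4, against 33.8 to 38.0 FPKM in lean samples. Like Acss3 it was highest in db/db 1. For Acss2 they were Ifi27l2b, of an interferon-induced family (0.233), Focad, which encodes focadhesin (0.236), and Lgals1, the galectin 1 gene (0.236). In the db/db group all 3 had their minimum in sample 1, as Acss2 did. This match, like that of Suox to Acss3, largely follows from choosing the genes by profile. With each group mean taken out, the nearest were Gtf2a2, a subunit of the general factor TFIIA (0.163), Tnfaip2 (0.209) and Sdpr, a caveola protein (0.241), for Acss2. For Acss3 they were Gm6563 (0.279), Eltd1, an adhesion receptor of endothelium (0.284), and Fbxo34, an F-box protein (0.329). Acss1, with 0 to 8 fragments a sample, was not compared.

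Markers showed liver tissue with little of other tissues. Summed FPKM of 8 hepatocyte markers was 12030 to 13218 in db/db livers and 28524 to 34299 in lean livers. Apoa1 and Ttr fell, 0 of the 8 rose, and the others were not called. Apoa1 had 587.8 to 1221 FPKM in db/db livers, against 13473 to 18621 FPKM in lean. Ttr had 3803 to 6046 FPKM in db/db livers, against 7012 to 8204 FPKM in lean. Of 5 Kupffer cell markers 2 fell, of 6 sinusoidal endothelial markers 2 fell, and of 5 stellate markers tested 1 fell, with none rising. Over all genes tested 10.9% were lower and 15.5% higher, and lists this short cannot be told from that share. No marker of cholangiocytes was called. The summed adipocyte markers were 0.384 to 2.14 FPKM in db/db livers and 1.96 to 6.12 FPKM in lean, and Lep was at 0 in every sample. Of 2 adipocyte markers tested 1 fell, Adrb3, a beta-adrenergic receptor gene (log2 fold change -1.65, limma adjusted p = 0.000505). Adrb3 had the largest value of this list in each lean sample, at 1.47 to 4.58 FPKM. Adipoq had 0.0432, 0.0496, 0 and 0.286 FPKM in db/db samples 1 to 4, against 0, 0.860, 0 and 0 in lean samples 1 to 4. Cfd overlapped between the groups, and Plin1 was above 0 in lean 2 alone. Of the skeletal muscle markers Ckm and Tnnt3 were at 0 in every sample. The summed lymphocyte markers were 0.129 to 0.561 FPKM in db/db livers and 0.560 to 1.93 FPKM in lean. The part of cell makeup in the results for Acss2 and Acss3 was not tested.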

How the data were processed

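Ribosomal RNA was removed from liver RNA and stranded libraries were made, per the labels' protocols. The tools named per the submitters' processing notes are Cuffdiff, Cufflinks, HISAT2 (2.0.4) and cutadapt (1.9.3), and the build is mm10; what each did is not stated. The deposited FPKM are values of the authors, and the transcript length behind them is not stated. The deposited columns headed counts were a normalized signal, estimated fragments divided by a library factor: 90.9 to 92.1% of values below 2000 steps were whole multiples of 1 step (within 0.05 of a step). Dividing by the step gave estimated fragments. Of the 3 members all values came out whole within 0.1.

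Rows of the same symbol were summed to 22481 genes. Genes with at least 0.5 FPKM in at least 4 of 8 samples (10943) were tested on log2(FPKM + 1) with limma 3.58.1 in R 4.3.3 (eBayes with trend, 2-sided, Benjamini-Hochberg adjustment, threshold 0.05). Log2 differences subtract lean from db/db, and folds are ratios of mean FPKM. Exact permutation tests used scipy 1.17.1. Only the ratio of Acss3 to Acss2 was tested, since the count of 0 for Acss1 leaves the other planned ratios undefined. The limma step was tested on simulated data. Members and lists were chosen with earlier results of these data known. Named list genes were a fixed set plus, per list, the 4 called genes with the smallest adjusted p and the most abundant one. Acacb, Me1, Mcee, Mmaa, Mmab, Mmachc, Mmadhc, Apoa1, Ttr, Adrb3, Adipoq, Plin1, Cfd, Ppfia2, Ggt7 and Gss were named after their values were seen. Some genes of the SREBP list are counted but not reported singly or drawn here. Alternatives were other pseudocounts, filters, scalings and measures, a replicate block, library weights and leaving out each sample.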

Additional observations from a re-analysis of the deposited data

Results flagged for a closer look

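A total of 3 of 106 groups of 4 samples, over 53 genes, held a sample whose gap to the nearest other exceeded the critical share of the range in Dixon's test, and chance alone would flag about 1 in 20 groups. Acss1 was at 0 FPKM in db/db 3, against 0.0283 to 0.0324 FPKM in the other db/db samples, which is a gap of 2 fragments. Srebf2 was at 2.38 FPKM in db/db 2, against 3.51 to 3.55 FPKM in the other db/db samples. Hsd17b10 was at 185.9 FPKM in lean 4, against 215.4 to 220.0 FPKM in the other lean samples.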

How the results depend on the processing

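Acss3 kept its direction and its call in all 18 alternatives that tested it (limma adjusted p 2.63e-06 to 0.000139), and the filter of at least 1 FPKM in all samples removed it. Acss2, with a log2 fold change of 0.57 and adjusted p = 0.0560, kept its direction in 19 alternatives and was called in 6. These were the stricter filter (0.57, adjusted p = 0.0496), TPM scaling (0.74), the count signal (0.61), voom (0.64), library weights (0.69) and the fit without db/db 1 (0.78). Without 1 sample it ranged from 0.44 to 0.78. The Acss1 difference of mean log2 values, -0.04 with no test, was -0.28 and -0.84 with pseudocounts of 0.1 and 0.01 and -0.70 on the count signal. It rests on 0 to 8 fragments a sample. The log2 ratio of Acss3 to Acss2 differed by 3.86 to 4.57 without 1 sample, where the smallest possible p is 0.0571. The number of genes called, 2892, was 2271 to 2650 without 1 sample. The acyl-CoA synthetase list had 2 genes lower in place of 1 with no filter, without db/db 1 and without lean 3.

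Differences that were never called changed sign as follows, and the cause was not tested: Sirt1 with TPM scaling (0.098) and voom (0.00030), and -0.11 to 0.10 without 1 sample; Srebf2 with TPM scaling (0.032), and -0.23 to 0.065 without 1 sample. Eltd1 gave -0.015 with median-ratio scaling, -0.074 with library weights and -0.095 to 0.15 without 1 sample. Gm6563 gave 0.11 with TPM scaling and -0.11 to 0.023 without 1 sample, and Tnfaip2 -0.28 to 0.030 without 1 sample.

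The labels do not say that replicate numbers pair the samples. Deviations of same-numbered samples correlated at -0.22, 0.029, 0.11 and -0.0093 across genes. Those of differently numbered samples ran from -0.23 to 0.29, so these values cannot show whether samples were paired. With the replicate block 2514 genes were called, Acss2 had adjusted p = 0.0750 and Acss3 adjusted p = 2.2e-05. Depth limits Acss1 most, then the lean level of Acss3.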

Other observations

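The deposited count signal divided by FPKM reflects the transcript length used for a gene. For Acss1, with 1 coding transcript, it was 60.1 to 60.3 in db/db livers and 60.2 to 60.4 in lean livers. For Acss2 it was 46.0 to 47.9 in db/db livers and 45.1 to 47.0 in lean livers. For Acss3, with 2 coding transcripts, it was 34.6 to 35.02 in db/db livers and 30.8 to 34.4 in lean livers, where the lowest value, of lean 4, rests on 18 fragments.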
